A study of Homo sapiens with 4 samples.

Results

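Collagens, integrins and laminins are the main building blocks of the extracellular matrix and of the receptors by which cells hold on to it, and their transcripts were examined here in GIST-T1, an established human line of gastrointestinal stromal tumor (GIST) cells. The members were all array probes whose full gene name was that of a collagen chain, an integrin alpha or beta chain, or a laminin alpha, beta or gamma chain. This gave 123 probes for 81 genes, out of 50599 probes with 36337 gene names on the array: 43 collagen genes, 18 integrin alpha chains, 8 integrin beta chains and 12 laminin chains. All 81 names matched a current RefSeq gene symbol. The cells received 100 pmol of either a miR-335 mimic, a synthetic double-stranded RNA that supplies the mature miRNA, or a negative control RNA (mirVana miRNA mimic Negative Control #1) by electroporation, and total RNA was taken after 48 h. Each group comprised 2 one-color Agilent arrays. The mimic arrays were titled and annotated as miR-335, whereas 1 line of their description carried a name with miR-34a in it. The samples are referred to here by their annotation as miR-335, and what that line means was not resolved. The labels do not say whether the arrays of a group came from separate transfections, so the p-values measure only the spread between these arrays.

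Collagens are trimers of alpha chains, each chain encoded by its own gene, and fall into fibril-forming, network-forming, fibril-associated and transmembrane types. Laminins are heterotrimers of 1 alpha, 1 beta and 1 gamma chain, and together with collagen IV they form the sheets of the basement membrane. Integrins are heterodimers of an alpha and a beta chain that bind these proteins outside the cell and link them to the actin cytoskeleton inside it. A miRNA pairs with messenger RNAs mainly through its seed, bases 2 to 8, and thereby lowers their stability and translation. The labels do not name the arm of miR-335 that the mimic supplied. Both mature sequences are therefore shown, from RefSeq (GRCh38.p14, plus strand), with the seed in capitals, since they are the sequence that distinguishes the mimic from the control.
hsa-miR-335-5p (chr7:130496126-130496148): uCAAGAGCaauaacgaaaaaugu
hsa-miR-335-3p (chr7:130496162-130496183): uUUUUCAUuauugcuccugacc

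The 4 arrays were similar in quality, with 40.3% to 41.9% of probes well above background and no saturated spots. Each value is a log2 signal from which the array's 75th percentile was subtracted, so that 0 marks the percentile itself. Levels of different probes were not compared with each other. The median absolute difference between the 2 arrays of a group was 0.06 in both groups, against 0.11 to 0.12 between a mimic and a control array. All arrays were on 1 slide and were scanned together, with the control arrays at positions 1 and 2 and the mimic arrays at positions 3 and 4, so that slide position and group cannot be told apart. All 6 GIST marker genes (including KIT, ANO1 and ETV1) were expressed on the control arrays, and none of the 3 endothelial markers was. Of the 5 genes of the epithelial list, KRT8, KRT18 and EPCAM were also expressed, while CDH1 and KRT19 were above background on no array.

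A gene was called expressed in control cells when at least 1 of its probes was well above background on both control arrays. By this definition 43 of the 81 genes were expressed: 23 of 43 collagens, 10 of 18 integrin alpha chains, 4 of 8 integrin beta chains and 6 of 12 laminin chains. Another 29 genes had no probe above background on any of the 4 arrays. The remaining 9 genes were above background on a single control array or on mimic arrays.

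**Figure D1:**
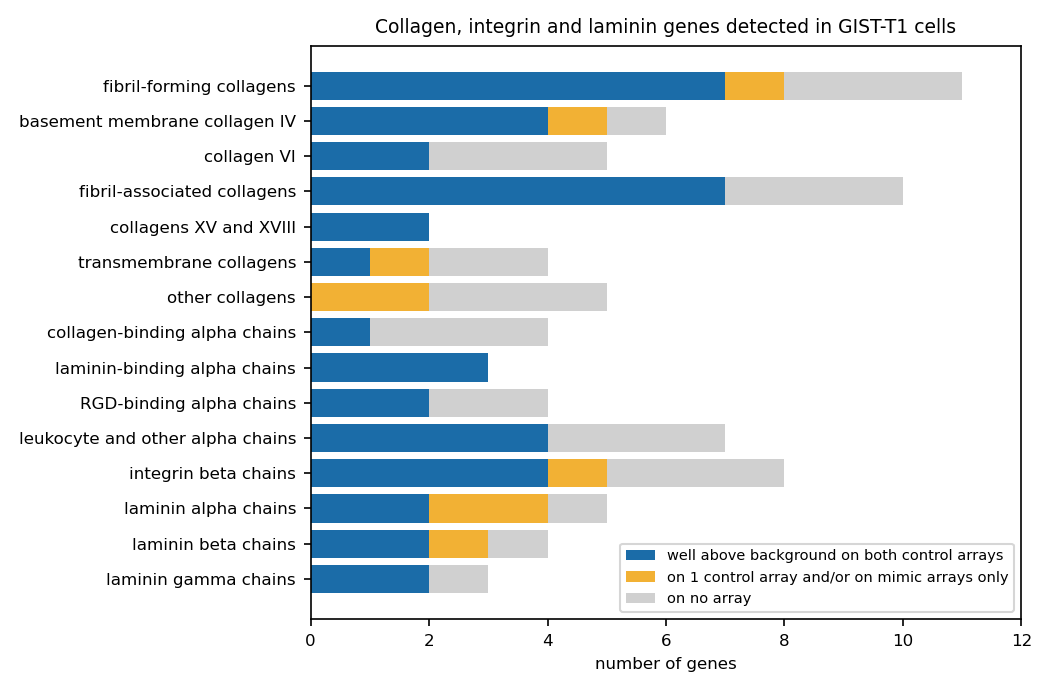
Number of genes (x axis) in each class of collagen, integrin alpha, integrin beta and laminin chains (y axis) whose probes were well above background on both control arrays (blue), on fewer control arrays or on mimic arrays only (yellow), or on no array (grey). The blue bars add up to 43 genes and the grey bars to 29.

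Among the genes of the basement membrane, 4 of 6 collagen IV chains and 6 of 12 laminin chains were expressed, against 43 of all 81 members. By the same definition 15159 of the 36337 gene names on the array were expressed. Of the collagen IV chains, COL4A1, COL4A2, COL4A5 and COL4A6 were expressed, while COL4A3 was not above background on any array and COL4A4 was above it on 1 control array only. The laminin chains LAMA4, LAMA5, LAMB1, LAMB2, LAMC1 and LAMC3 were expressed. LAMA2 and LAMB4 were not detected, and LAMA1, LAMA3 and LAMB3 were above background on 1 control array each. COL15A1 and COL18A1, the chains of the multiplexin collagens that flank basement membranes, were both expressed.

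Among the fibril-forming collagens, COL1A1, COL3A1, COL5A1, COL5A2, COL11A2, COL24A1 and COL27A1 were expressed, whereas COL1A2, the partner of COL1A1 in ordinary type I collagen, was above background on no array. COL6A1 and COL6A2 were expressed without COL6A3, the chain with which they assemble. The fibril-associated collagens COL9A1, COL9A2, COL9A3, COL12A1, COL14A1, COL16A1 and COL22A1 were expressed. A probe below background gives only a bound on its own target stretch, and whether another stretch of such a transcript was present was not tested.

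The integrin alpha chains expressed were the 3 that bind laminin (ITGA3, ITGA6 and ITGA7), the fibronectin and vitronectin receptors ITGA5 and ITGAV, the collagen receptor ITGA11, and ITGA4, ITGA9, ITGAE and ITGAM. Of the beta chains ITGB1, ITGB2, ITGB4 and ITGB5 were expressed. ITGB7, the partner of ITGAE, was above background on 1 control array and on both mimic arrays. ITGA4 and ITGB2 each met the definition at 1 of their 3 probes, and the other ITGB2 probes were above background on no array. The other collagen receptors ITGA1, ITGA2 and ITGA10 were not detected, nor were the platelet chain ITGA2B and the leukocyte chains ITGAL, ITGAX and ITGAD. ITGB3, ITGB6 and ITGB8, all partners of ITGAV, were not detected either, which left ITGB1 and ITGB5 as the expressed partners of that chain. ITGAM and ITGB2 are known as leukocyte chains, and the leukocyte markers PTPRC and CD3E were not expressed on these arrays.

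Whether the mimic altered these transcripts was tested on 60 of the 123 member probes, covering 45 genes, which exceeded background clearly on both arrays of the mimic group, the control group or both. Of these, 57 were well above background on all 4 arrays. COL5A3 and ITGB7 entered through the mimic arrays, having been above background on 1 control array, and COL22A1 was above it on 1 mimic array. Of the other 63 probes, 50 were above background on no array and 13 on at least 1.

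With the mimic, 1 member probe fell and 4 rose at a limma adjusted p under 0.05. The probe that fell measured COL12A1, and those that rose measured COL27A1, LAMA5, COL16A1 and COL4A5. Across all 20328 tested probes the same rule called 1.15% lower and 1.47% higher, or 2.62% in either direction, against 8.33% of the member probes. None of the 60 member probes differed by more than 1.5-fold, a size reached by 3.90% of all tested probes (1.47% lower and 2.43% higher). The differences were thus small, between -0.44 and 0.54 on the log2 scale. All 5 passed under the 3 other scalings of the arrays that were tried, but none passed when any 1 of the 4 arrays was left out (adjusted p from 0.144 to 0.204), with each direction kept.

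**Figure D2:**
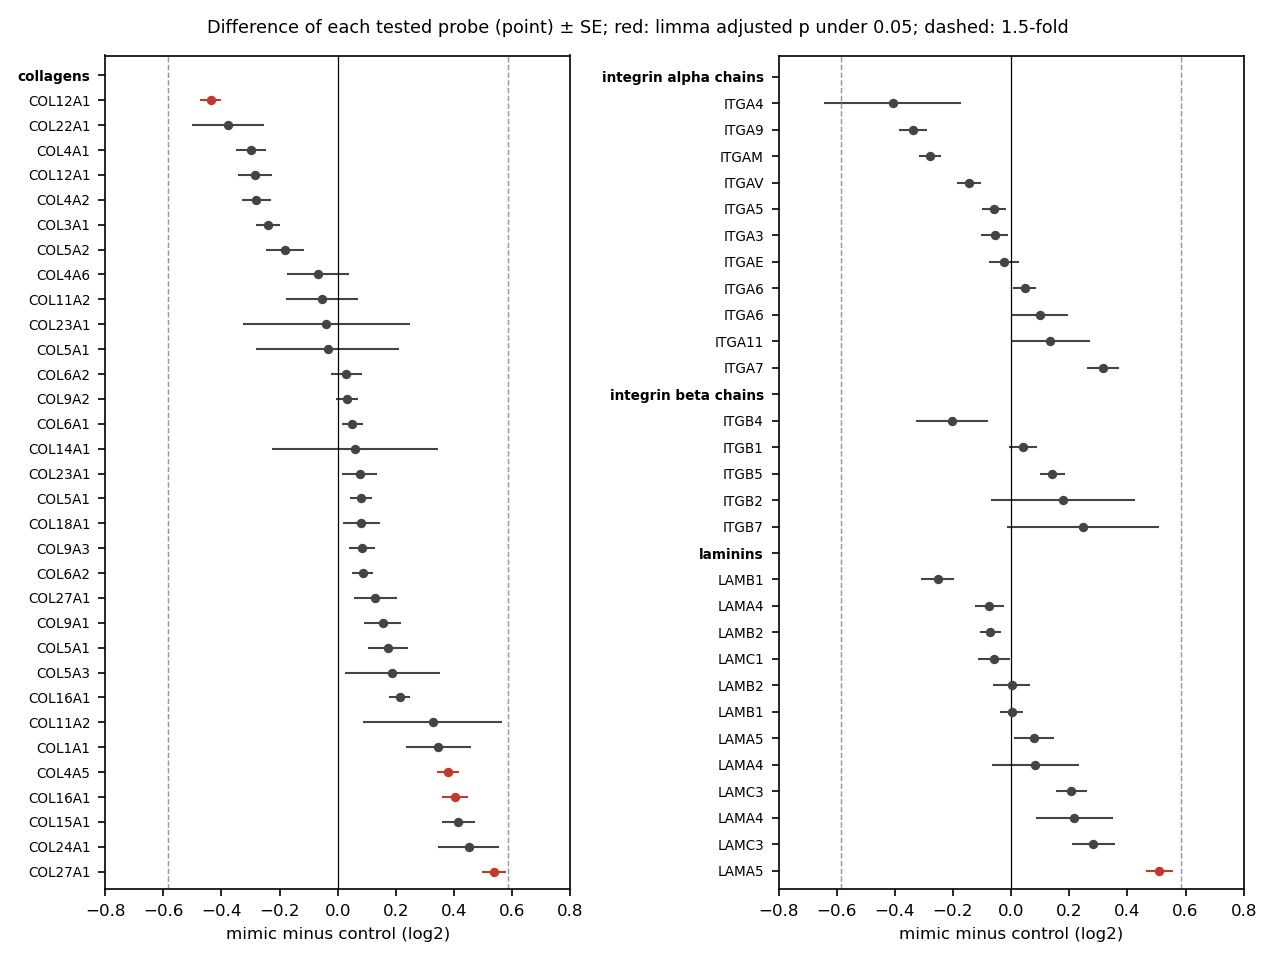
Difference of the mimic from the control arrays (x axis, log2) for each of the 60 tested probes (points, named by gene; bars, SE from limma), collagens at the left and integrin and laminin chains at the right. Red points are the 5 probes with an adjusted p under 0.05, and all points lie inside the dashed lines at 1.5-fold.

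COL12A1 encodes a fibril-associated collagen that bridges collagen fibrils to other matrix proteins. Its called probe (A_23_P214168, chr6:75794289-75794348 of hg19, minus strand) read 4.33 and 4.31 on the control arrays and 3.89 and 3.88 on the mimic arrays. The groups did not overlap, and the arrays of each group lay close together. The probe fell by 0.44 on the log2 scale (SE 0.04, adjusted p = 0.0388 with limma), or 1.35-fold. A second probe of the gene, upstream in the transcript, read -0.26 and -0.32 on the control arrays and -0.63 and -0.52 on the mimic arrays. It was also lower on both mimic arrays, with a difference of -0.28 that did not pass the test (adjusted p = 0.106).

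COL27A1, a fibril-forming collagen of cartilage, had the largest difference of the 60 probes. Its called probe (A_23_P158096, chr9:117073738-117073797 of hg19, plus strand) read 2.43 and 2.48 on the control arrays and 2.99 and 3.002 on the mimic arrays. It rose by 0.54 (SE 0.04, adjusted p = 0.0351), or 1.45-fold. The other tested probe of the gene lay less than a kilobase away in the genome and was designed on another transcript. It read 0.54 and 0.42 on the control arrays and 0.67 and 0.54 on the mimic arrays, a difference of 0.13 (adjusted p = 0.359). The difference between the COL27A1 probes was 1.89 and 2.06 on the control arrays and 2.32 and 2.46 on the mimic arrays, so that the called probe rose relative to its neighbor on both mimic arrays, a comparison that carried no test.

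LAMA5 encodes the alpha chain of the most widespread laminins of adult basement membranes. Its called probe (A_33_P3384442, chr20:60920556-60920615 of hg19, minus strand) read 6.69 and 6.62 on the control arrays and 7.18 and 7.15 on the mimic arrays. It rose by 0.51 (SE 0.05, adjusted p = 0.0407), or 1.42-fold. The second LAMA5 probe, nearer the 3' end of the gene, read 0.31 and 0.47 on the control arrays and 0.48 and 0.46 on the mimic arrays. Its groups overlapped, and its difference of 0.08 did not pass the test (adjusted p = 0.521; 95% interval -0.12 to 0.28). For LAMA5, as for COL27A1, the call rested on 1 of the probes, and which transcripts each probe captured was not tested.

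COL16A1 encodes a fibril-associated collagen found beside small fibrils and basement membranes. Its called probe (A_23_P160318, chr1:32118175-32118234 of hg19, minus strand) read 2.69 and 2.62 on the control arrays and 3.06 and 3.04 on the mimic arrays. It rose by 0.40 (SE 0.04, adjusted p = 0.0492), or 1.32-fold, and was the call nearest the threshold. On the authors' rounded value table its adjusted p was 0.0515, and with robust variance moderation 0.0523. The second COL16A1 probe was higher on both mimic arrays as well, by 0.21 (adjusted p = 0.0863).

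COL4A5 was represented by a single probe (A_23_P45365, chrX:107940580-107940639 of hg19, plus strand), which read 2.18 and 2.17 on the control arrays and 2.54 and 2.57 on the mimic arrays. It rose by 0.38 (SE 0.04, adjusted p = 0.0446), or 1.30-fold. COL4A5 encodes a chain of the collagen IV networks of kidney and smooth muscle basement membranes.

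**Figure D3:**
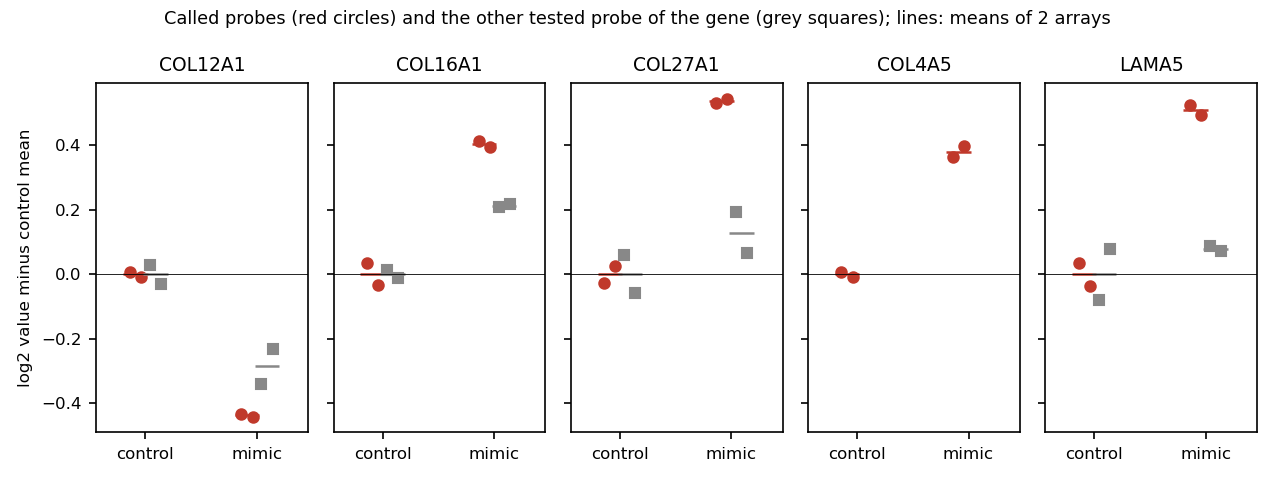
Log2 value of each array minus the control mean of the same probe (y axis) on control and mimic arrays (x axis) for the 5 called genes; red circles are the called probe, grey squares the other tested probe where there is one, and lines the means of 2 arrays. For COL27A1 and LAMA5 the grey squares on the mimic arrays lie nearer the control mean than the red circles do, and for COL12A1 and COL16A1 both probes lie on the same side of it.

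The other expressed collagen IV chains did not pass the test. COL4A1, which forms the common collagen IV trimer with COL4A2, read 2.43 and 2.35 on the control arrays and 2.11 and 2.07 on the mimic arrays. COL4A2 read 5.58 and 5.56 on the control arrays and 5.24 and 5.33 on the mimic arrays. For both chains the mimic arrays lay below the control arrays without overlap, by -0.30 (adjusted p = 0.0846) and -0.28 (adjusted p = 0.0881), and neither passed the test. Both were called lower with normexp background correction, which called 7.62% of all tested probes (3.73% lower and 3.90% higher). They were also called lower with the eBayes variance trend and with spike-in scaling, which called 8.54% and 44.6% of all tested probes lower. COL4A6 differed by -0.07 with overlapping groups (adjusted p = 0.715; 95% interval -0.37 to 0.24).

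The collagen IV genes lie head to head in pairs. In the RefSeq promoter windows, 250 bases before to 50 after each start, the starts of COL4A1 and COL4A2 were 127 bases apart on chromosome 13 and their windows shared 226 bases, while the nearest starts of COL4A6 and COL4A5 were 380 bases apart on the X chromosome. The shared stretch of COL4A1 and COL4A2 that holds a CCAAT box is shown because both genes had similar differences; the box is in capitals and the build is GRCh38.p14, plus strand.
COL4A1 and COL4A2 shared window (chr13:110307167-110307196): gggccgagctccCCAATttgttggcgctgc
CCAAT, searched on both strands, was present in 34.6% of 35116 promoter windows of this length. It was in 9 of the 45 windows of tested member genes (20.0%), so its presence in the shared stretch does not set the pair apart.

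**Figure D4:**
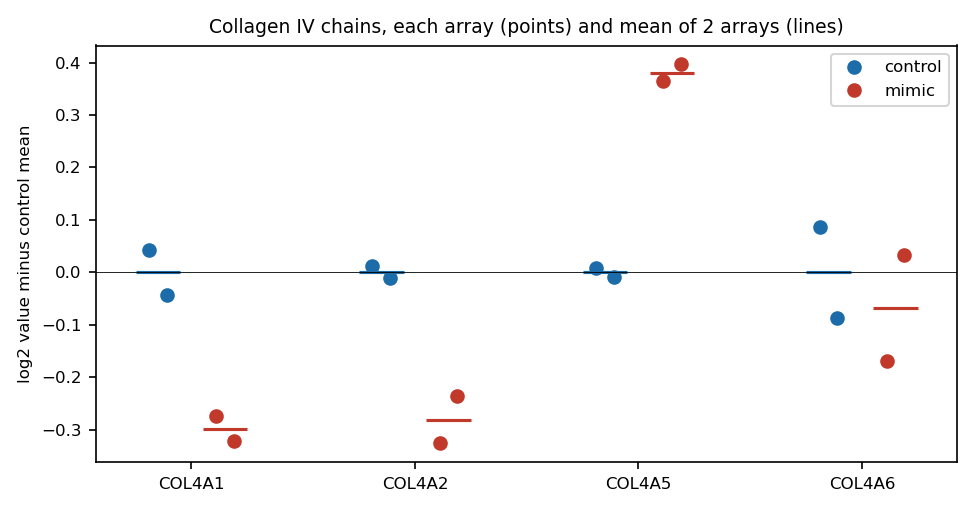
Log2 value of each array minus the control mean of the same probe (y axis) for the 4 expressed collagen IV chains (x axis), control arrays in blue and mimic arrays in red, with lines at the means of 2 arrays. COL4A1 and COL4A2 lie below 0 on both mimic arrays, COL4A5 above it, and the COL4A6 groups overlap.

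The remaining collagens did not pass the test. COL24A1, a minor fibril-forming collagen, read -2.24 and -2.30 on the control arrays and -1.94 and -1.69 on the mimic arrays, a difference of 0.45 (adjusted p = 0.121). COL15A1 read 2.30 and 2.31 on the control arrays and 2.66 and 2.78 on the mimic arrays, a difference of 0.41 (adjusted p = 0.0661). Both genes were higher on each mimic array than on either control array. COL15A1 was called higher with normexp, the variance trend and spike-in scaling, which called 3.9%, 6.63% and 2.54% of all tested probes higher. COL3A1, the type III collagen of soft tissues, differed by -0.24 (adjusted p = 0.087) and COL1A1 by 0.35 (adjusted p = 0.183). COL6A1 and COL6A2, of the microfibrillar collagen VI, differed by 0.03 to 0.09 over their 3 probes.

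Over the 32 collagen probes the differences were positive for 21 and negative for 11, with a median of 0.08. Probes of one gene disagreed in sign for COL5A1, COL11A2 and COL23A1. The widest such gap was in COL11A2, with a difference of 0.33 at one probe and -0.05 at the other (adjusted p = 0.455 and 0.813). The COL5A1 probes differed by 0.17, 0.08 and -0.03, and those of COL23A1 by 0.08 and -0.04, the negative value in both genes having an SE of 0.25 or more.

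No integrin probe passed the test, either among the 11 of alpha chains or among the 5 of beta chains. At an unadjusted p under 0.05, 3 alpha probes were lower and 1 higher, and 1 beta probe was higher; over all tested probes 25.3% met that threshold. With the variance trend of limma's eBayes, 3 integrin alpha probes (ITGA9 and ITGAV lower, ITGA7 higher) and ITGB5 (higher) passed, under a setting that called 15.2% of all tested probes (8.54% lower and 6.63% higher). Spike-in scaling called 44.6% of all tested probes lower and 2.54% higher. Under it ITGA3, ITGA5, ITGA9, ITGAE, ITGAM and ITGAV were called lower, ITGA7 was not called and the ITGB5 difference was -0.05. Among the laminin receptors, ITGA7, the main alpha chain of muscle, read 0.66 and 0.75 on the control arrays and 0.99 and 1.06 on the mimic arrays, a difference of 0.32 (adjusted p = 0.087). ITGA3 and ITGA6, which bind laminin in epithelia and many other tissues, differed by -0.06 and, for the ITGA6 probes, by 0.05 and 0.10.

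ITGA9, a receptor for tenascin and osteopontin, read 0.55 and 0.60 on the control arrays and 0.20 and 0.27 on the mimic arrays, a difference of -0.34 (adjusted p = 0.069). ITGAM, the alpha chain of the complement receptor, read -1.35 and -1.34 on the control arrays and -1.64 and -1.61 on the mimic arrays, a difference of -0.28 (adjusted p = 0.0671). In both genes the mimic arrays lay below the control arrays by more than the spread of either group. ITGA4, a receptor for fibronectin and VCAM1, had the largest integrin difference, -0.41, and the mimic arrays differed from each other by more than that, at -2.27 and -1.65 against -1.57 and -1.54 on the control arrays (adjusted p = 0.359).

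The receptors for fibronectin and vitronectin, ITGA5 and ITGAV, differed by -0.06 (95% interval -0.18 to 0.06) and -0.14 (95% interval -0.26 to -0.02; adjusted p = 0.158). ITGB1, the beta chain shared by most of these receptors, read 1.16 and 1.24 on the control arrays and 1.22 and 1.26 on the mimic arrays. Its groups overlapped, and the 95% interval of its difference was -0.10 to 0.18. ITGB5, the vitronectin receptor partner of ITGAV, read 6.11 and 6.06 on the control arrays and 6.21 and 6.25 on the mimic arrays, a difference of 0.14 (adjusted p = 0.164). ITGB4, the partner of ITGA6 in hemidesmosomes, differed by -0.20, ITGB2 by 0.18 and ITGB7 by 0.25, each with overlapping groups and an SE of 0.12 to 0.26.

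Among the laminin probes, 1 of 12 passed the test, that of LAMA5 described above. LAMC3, a gamma chain of more restricted distribution than LAMC1, was higher on both mimic arrays at both of its probes, by 0.21 (adjusted p = 0.141) and 0.28 (adjusted p = 0.14). LAMB1, the beta chain of early and widespread laminins, read 6.92 and 6.89 on the control arrays and 6.89 and 6.93 on the mimic arrays at its probe near the 3' end. Its difference there was 0.003 (95% interval -0.11 to 0.12), whereas its probe near the 5' end differed by -0.25 (adjusted p = 0.121). LAMC1, which is part of most laminins, differed by -0.06, and the LAMA4 probes by -0.07, 0.08 and 0.22.

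LAMB2, the beta chain of neuromuscular and vascular laminins, had the only member probe that contained GCTCTTG, the complement of the miR-335-5p seed. The last 30 bases of this probe (A_33_P3338116, chr3:49158584-49158643 of hg19, minus strand) are shown with the match, bases 53 to 59 of 60, in capitals.
LAMB2 probe, last 30 bases: atgtctgcctatgcactgaagaGCTCTTGg
The probe read 3.85 and 3.84 on the control arrays and 3.76 and 3.78 on the mimic arrays, a difference of -0.07 (SE 0.04, adjusted p = 0.314). Its other probe differed by 0.001 (95% interval -0.18 to 0.19). Of all tested probes 0.492% contained GCTCTTG, searched in the probe's own orientation. The probes cover 60 bases of each transcript, so this search says nothing about the rest of the messenger RNA. ATGAAAA, the complement of the miR-335-3p seed, was in 3 member probes, of which 1 was tested, and in 1.05% of all tested probes.

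Over all 60 member probes, 23 differences were negative and 37 positive, with a median of 0.06 against -0.01 over all tested probes. The medians were 0.08 for collagens, -0.06 for integrin alpha chains, 0.14 for beta chains and 0.04 for laminins. At an unadjusted p under 0.05, 10 member probes were lower and 12 higher, against 13.7% and 11.7% of all tested probes. The groups did not overlap for 38 member probes (63.3%), 16 lower and 22 higher, close to the 59.7% of all tested probes for which this was so (32.5% lower and 27.1% higher). When the arrays were scaled to the labeled spike-in RNAs instead of the 75th percentile, every difference shifted by -0.19. The split was then 45 negative and 15 positive, and 20 member probes were called lower and 5 higher (41.7% in all, against 47.2% of all tested probes, 44.6% lower and 2.54% higher), with COL12A1 still lower and COL27A1, LAMA5, COL16A1 and COL4A5 still higher. The share of positive differences was 61.7% in the main scaling, 60% with quantile normalization, 61.7% with scaling to the median of detected probes and 25.0% with spike-in scaling.

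**Figure D5:**
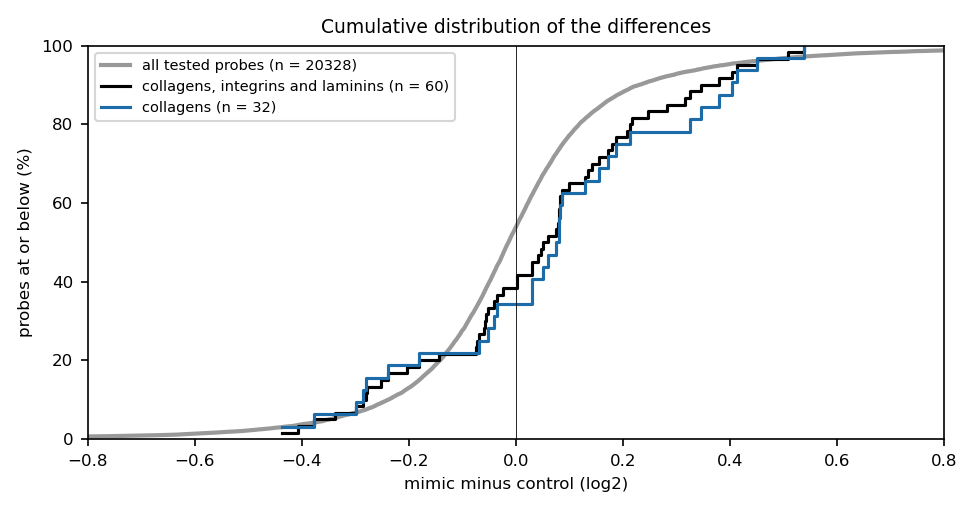
Cumulative share of probes (y axis, percent) at or below each difference of the mimic from the control arrays (x axis, log2) for all 20328 tested probes (grey), the 60 member probes (black) and the 32 collagen probes (blue). The member curve lies inside -0.44 and 0.54, and its median, 0.06, is to the right of that of all probes, -0.01.

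The proteins that make, surround and anchor these molecules were examined with 3 lists. Of 31 genes for collagen modification, folding, export and cross-linking, 24 were expressed in control cells, and none of their 33 tested probes passed the test. Of these, 18 were lower and 15 higher, with a median difference of -0.01. SERPINH1, the collagen chaperone, read 6.97 and 7.02 on the control arrays and 7.04 and 7.09 on the mimic arrays (difference 0.07, adjusted p = 0.391). P4HB, a subunit of the prolyl hydroxylase that stabilizes the collagen helix, differed by -0.01 and -0.07 at its probes.

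Of 11 other matrix proteins, 9 were expressed, and none of their 10 probes passed the test. NID1 and NID2, the nidogens that link laminin to collagen IV, differed by -0.19 (adjusted p = 0.164) and 0.70 (adjusted p = 0.298). The NID2 value rested mainly on 1 array, with 0.07 and -0.83 on the mimic arrays against -1.06 and -1.09 on the control arrays. TNC, the tenascin bound by ITGA9, read 1.65 and 1.70 on the control arrays and 1.87 and 2.03 on the mimic arrays (difference 0.27, adjusted p = 0.139).

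Of 19 proteins that bind integrin tails or focal adhesions, 17 were expressed, and none of their 23 probes passed the test. The differences were negative for 17 probes and positive for 6, with a median of -0.10. The largest were those of LIMS2 (-0.55, adjusted p = 0.0881) and PARVB (-0.53, adjusted p = 0.135), partners of the integrin-linked kinase ILK, which itself differed by -0.04. KANK2, a talin-binding adaptor, read 7.82 and 7.80 on the control arrays and 7.62 on both mimic arrays (difference -0.19, adjusted p = 0.0987). VCL (vinculin) and TLN1 (talin) differed by -0.13 and by -0.02 and 0.02.

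Smooth muscle cells and fibroblasts also produce collagens. Of 5 of their marker genes 4 were expressed, with MYH11 below background on every array, and the summed level of the list was 4.15 on both control arrays and 3.78 to 3.79 on the mimic arrays on the log2 scale. ACTA2, smooth muscle actin, fell by 0.50 (adjusted p = 0.0392), and DCN, LUM and DES differed by -0.35, -0.33 and -0.25 without passing the test. The summed level of the GIST list was 8.34 to 8.36 on the control arrays and 8.12 to 8.15 on the mimic arrays. Such a sum is weighted toward its brightest probe, here a KIT probe. It read 7.49 and 7.48 on the control arrays and 7.14 and 7.17 on the mimic arrays. Over the 13 tested probes of the GIST list the median difference was -0.09, with 11 lower and 2 higher. The summed level of the epithelial list was 6.96 to 6.99 on the control arrays and 6.98 to 7.005 on the mimic arrays. The part of these levels in the differences of the matrix genes was not tested, and in these arrays fewer cells of a type and less RNA per cell cannot be told apart.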

How the data were processed

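Gene expression was measured in 4 samples of GIST-T1 cells, 2 with a miR-335 mimic and 2 with a negative control RNA, from 100 ng of total RNA each, grouped by the labels. The files deposited by the authors hold an intensity for each spot, made with scanner software given as Agilent Feature Extraction 10.7 in the submitters' processing notes and as 10.7.3.1 per the file headers. The processed intensity had been background-subtracted by that software and was not normalized between arrays. The flags for control, outlier, saturated and well-above-background spots came from the same deposited files. A rounded copy of that intensity, deposited as one table for the series, was used for an alternative; 0 of its columns matched no sample.

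Outlier spots (356 to 395 per array) were left out, spots of a probe were averaged, and each array's 75th percentile (all probes) was subtracted from the log2 signal. A probe was well above background where at least 0.5 of its usable spots were flagged so. The 20328 probes tested had a value on all 4 arrays and were well above background on both mimic arrays, both control arrays or all. The test was that of limma 3.58.1 (R 4.3.3; functions lmFit and eBayes, without covariates), with Benjamini-Hochberg adjustment over all of them and a threshold of 0.05. Steps were tested on simulated data. An exact permutation test of 2 against 2 arrays cannot give a two-sided p under 0.333 and was not used. The number of arrays limits the precision.

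The members and lists were chosen with earlier results of these data known, so no list was tested as a set. Members named were those called, the 5 with the largest difference in each class, and those whose probes disagreed in sign or by more than 0.5; the others named were chosen after their values had been seen. Promoter and miRNA sequences are from RefSeq, and probe sequences from the array files. The alternatives were other scalings, background corrections, filters, variance models and the methods' t-test, a replicate block and leaving out each array. The level of 1 member gene and of 1 marker list is not reported here.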

Additional observations from a re-analysis of the deposited data

How the results depend on the processing

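COL12A1 stayed lower, and COL27A1, LAMA5, COL16A1 and COL4A5 stayed higher, under every alternative run. The 1 lower and 4 higher calls became 5 lower and 6 higher with normexp background correction, 6 and 8 with the eBayes variance trend, 20 and 5 with spike-in scaling (7 of 10 spike-in probes used, each 0.12 to 0.26 higher on the mimic arrays), and 0 and 0 without a filter on dim probes. Over all tested probes the number of calls moved from 532 to 1550 with normexp, 3083 with the trend, 9592 with spike-in scaling and 0 without the filter. After Benjamini-Hochberg adjustment, 0 lower and 0 higher calls were left by the methods' t-test. At an unadjusted p under 0.05 that test gave 9 lower and 10 higher among the 60 member probes. Of all 20328 tested probes, 4115 met the same threshold in either direction. Leaving out 1 array gave 0 calls in each direction, whichever array it was, with at most 8 over all probes; the lone array of a group was assumed to vary like the others. With the filter applied again after leaving out an array, an alternative chosen after seeing the data, 0 to 1 member probes were called lower and 0 higher. The median difference of the members was -0.13 with spike-in scaling, where that of all probes was -0.20, and 0.03 to 0.06 with 1 array left out. Differences over 1.5-fold numbered 2 lower with spike-in scaling, 6 lower and 5 higher without the filter, 0 to 1 lower with 1 array left out (ITGA4, without mimic replicate 2), and 0 to 3 in each direction with the filter applied again. The count of expressed genes, 43, became 50 when 1 control array was enough, 31 when every probe of the gene had to pass, 57 with the flag for a positive and significant signal, 47 without control replicate 1 and 46 without control replicate 2.

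With spike-in scaling the positive differences among the 60 member probes went from 37 to 15. Named member genes were compared only at their tested probe with the largest difference. Among these, the differences of COL23A1 (-0.112), COL5A1 (-0.0144), ITGB1 (-0.145), ITGB2 (-0.00754) and ITGB5 (-0.0454) changed sign. With 1 array left out, that of ITGB2 ranged from -0.0825 (without control replicate 2) to 0.441, being -0.0217 without mimic replicate 1, and that of ITGB7 from -0.0528 (without control replicate 2) to 0.548, with the same values when the filter was applied again. The cause was not tested.

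The sample titles number the 4 arrays consecutively, mimic arrays first. Replicate numbers 1 and 2 within each group were assigned here in that order, so the labels give no pairing. The correlation of the replicate differences of the groups was 0.03, and the numbers were not taken to pair the arrays. With a replicate block on these assigned numbers, 0 member probes were called lower and 0 higher (0 of all probes). A slide or scan block could not be fitted because all 4 arrays share 1 slide and 1 scan. Of the probes not above background only a bound is known.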

Other observations

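A few member probes that were not tested had a high signal on a single array. An ITGA4 probe (A_33_P3224878) read -1.30 on control replicate 1, against -3.77 on the other control array and -3.85 and -4.85 on the mimic arrays. A LAMB3 probe (A_33_P3338121) read -1.17 on control replicate 2, against -4.63 on control replicate 1 and -2.93 and -3.13 on the mimic arrays. A COL17A1 probe (A_23_P501010) read -2.20 on control replicate 1 and -5.23 to -4.98 on the other arrays. A difference of over 1.5-fold separated the 2 control arrays at 3 of the 60 tested member probes and the 2 mimic arrays at 2 of them, and separated the groups at none.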
